A study of Mus musculus with 12 samples.

Results

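A set of 9 transcription factor genes act in the choice between monocyte, macrophage and dendritic cell fates, and they were followed through a culture that turns mouse monocytes into dendritic cells: Spi1, Cebpa, Klf4, Cebpb, Zeb2, Bcl6, Id2, Batf3 and Zbtb46. They were picked by name, with earlier results of these data known, and are 9 of the 47643 genes in the count files. All 9 had enough reads to be tested, among the 14034 genes that passed the filter on low counts. The 12 libraries came from bone marrow monocytes of mice on a C57BL/6 background, either wild-type (WT) or knocked out for Nr4a3 (KO), a nuclear receptor gene. Monocytes of each genotype were taken after sorting, without culture, or after 1 or 2 days with the cytokines GM-CSF and IL-4, which gave 6 groups of 2 libraries. Series and labels ask what Nr4a3 does in this conversion, and the comparisons here ask how the 9 genes moved in culture and whether they differed between genotypes. The labels give 2 independent experiments per group, and do not say how many mice gave the cells of a library, which cells lost Nr4a3 or which part of the gene was deleted.

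Background on the set is as follows. Spi1 encodes PU.1, an ETS-family factor needed by all myeloid cells, and Cebpa encodes C/EBPα, which drives progenitors into the granulocyte and monocyte lineages. Klf4 and Cebpb act in monocytes and macrophages, Klf4 in their formation and Cebpb in their survival and inflammatory response. Id2, Batf3 and Zbtb46 belong to the dendritic cell side: Id2 protein binds and blocks E-proteins, Batf3 is an AP-1 factor required for cDC1 (the cross-presenting class of conventional dendritic cells), and Zbtb46 is a zinc finger factor used to mark conventional dendritic cells. Zeb2 and Bcl6 encode repressors that hold competing programs down, Zeb2 on the side of monocytes and plasmacytoid dendritic cells and Bcl6 on the side of cDC1. GM-CSF and IL-4 signal through STAT proteins, which bind a pair of TTC and GAA letters set a few bases apart.

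Sequences ahead of the start sites are shown for 4 members, because Klf4, Cebpb and Zeb2 were lower in culture and Bcl6 was not, and because the Bcl6 window holds several STAT-type letter pairs. Each run is the 250 bases before a RefSeq start in GRCm38.p6, written 5′ to 3′ on the strand of the gene, and overlaps no annotated exon. Capitals mark every match, on either strand, to GGAA (the core bound by ETS factors such as PU.1), TTGCNNAA (C/EBP site), TTCNNNGAA (STAT pair; the wider STAT pair with a spacer of 4 was searched too and not found in these 4), TGANTCA (AP-1 site), CACCTG (bound by ZEB factors), CACCC (KLF box) or AAAGGTCA (NR4A site).
Klf4, chr4:55532476-55532725, minus strand: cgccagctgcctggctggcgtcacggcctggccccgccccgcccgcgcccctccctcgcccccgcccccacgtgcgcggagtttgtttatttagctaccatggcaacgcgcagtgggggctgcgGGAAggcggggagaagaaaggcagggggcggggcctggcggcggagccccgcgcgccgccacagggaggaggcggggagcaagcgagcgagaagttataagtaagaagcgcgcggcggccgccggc
Cebpb, chr2:167688665-167688914, plus strand: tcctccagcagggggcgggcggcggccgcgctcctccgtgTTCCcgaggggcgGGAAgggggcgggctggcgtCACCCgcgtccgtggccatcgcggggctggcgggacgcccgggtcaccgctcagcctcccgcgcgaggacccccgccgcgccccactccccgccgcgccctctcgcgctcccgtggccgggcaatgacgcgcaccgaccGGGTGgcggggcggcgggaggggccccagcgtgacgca
Zeb2, upstream start, chr2:45117443-45117692, minus strand: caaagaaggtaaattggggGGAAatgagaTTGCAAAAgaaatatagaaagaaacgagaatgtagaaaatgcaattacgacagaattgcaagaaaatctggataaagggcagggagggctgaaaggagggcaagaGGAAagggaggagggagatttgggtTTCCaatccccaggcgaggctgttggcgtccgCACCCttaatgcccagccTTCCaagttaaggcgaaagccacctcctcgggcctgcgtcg
Bcl6, downstream start, chr16:23981284-23981533, minus strand: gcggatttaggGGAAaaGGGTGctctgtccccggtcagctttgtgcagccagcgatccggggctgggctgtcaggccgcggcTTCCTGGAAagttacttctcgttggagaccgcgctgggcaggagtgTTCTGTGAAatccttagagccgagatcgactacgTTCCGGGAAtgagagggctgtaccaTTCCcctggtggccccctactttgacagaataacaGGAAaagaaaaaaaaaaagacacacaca
The Klf4 window held 1 GGAA and no other match. The Cebpb window held 2 GGAA and 2 CACCC, and the Zeb2 window 4 GGAA, 1 TTGCNNAA and 1 CACCC. The Bcl6 window held 3 TTCNNNGAA, 7 GGAA and 1 CACCC, and 4 of the GGAA lay inside TTCNNNGAA matches. Windows not shown held STAT pairs too. The upstream Bcl6 start, the overlapping Zeb2 windows from chr2:45113280 and chr2:45113254, and the window of Batf3, which rose, held 1 TTCNNNGAA each. The Zeb2 window from chr2:45110278 held 1 wider STAT pair and 2 TGANTCA. Whether any match bears on the levels of these genes was not tested. Of 32851 windows of the same length ahead of RefSeq starts, 93.4% held GGAA, 52% CACCC, 9.56% TTGCNNAA and 7.02% TTCNNNGAA, and 9 windows (0.0274%) held at least 3 TTCNNNGAA. The Bcl6 window was picked for its STAT pairs after all member windows were searched, so the last share is no test of it. A match describes letters only, and no binding was measured.

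The libraries held 5905266 to 18447405 reads in genes. Nr4a3 was near 0 in monocytes of both genotypes (0 to 0.928 CPM, read counts scaled to the size of the library). The WT day 1 libraries held 16.5 and 10.4 CPM of Nr4a3, against 6.58 and 0 CPM in KO. The WT day 2 libraries held 1290 and 1360 CPM, against 39 and 19.3 CPM in KO. The knockout was thus lower than WT in both cultured stages, with remaining reads at day 2. Summed classical monocyte markers (10 genes) ran from 21400 to 22300 CPM before culture and from 1700 to 2730 CPM on day 2, and summed dendritic cell markers (13 genes) from 350 to 494 CPM and from 20500 to 33500 CPM. By the dates that the deposited files carry in their names, monocytes and day 1 came from the same pair of experiments and day 2 from another pair, so that a difference between day 2 and an earlier stage cannot be told apart from a difference between experiments. Both day 2 replicate 1 libraries had Xist at 794 to 885 CPM, against at most 1.01 CPM elsewhere. Within day 2 whatever lies behind this Xist split cannot be told apart from replicate and experiment. The library labelled KO day 1 replicate 1 stood apart, with a score on the leading principal component of 1.59 between the monocytes (-140 to -116) and the other day 1 libraries (38.4 to 46.7). WT monocytes replicate 2 stood apart by summed neutrophil markers of 4490 CPM, against 1550 CPM in WT monocytes replicate 1 and 2030 to 2610 CPM in KO monocytes. In these bulk libraries fewer cells of a type and less RNA per cell cannot be told apart.

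**Figure D1:**
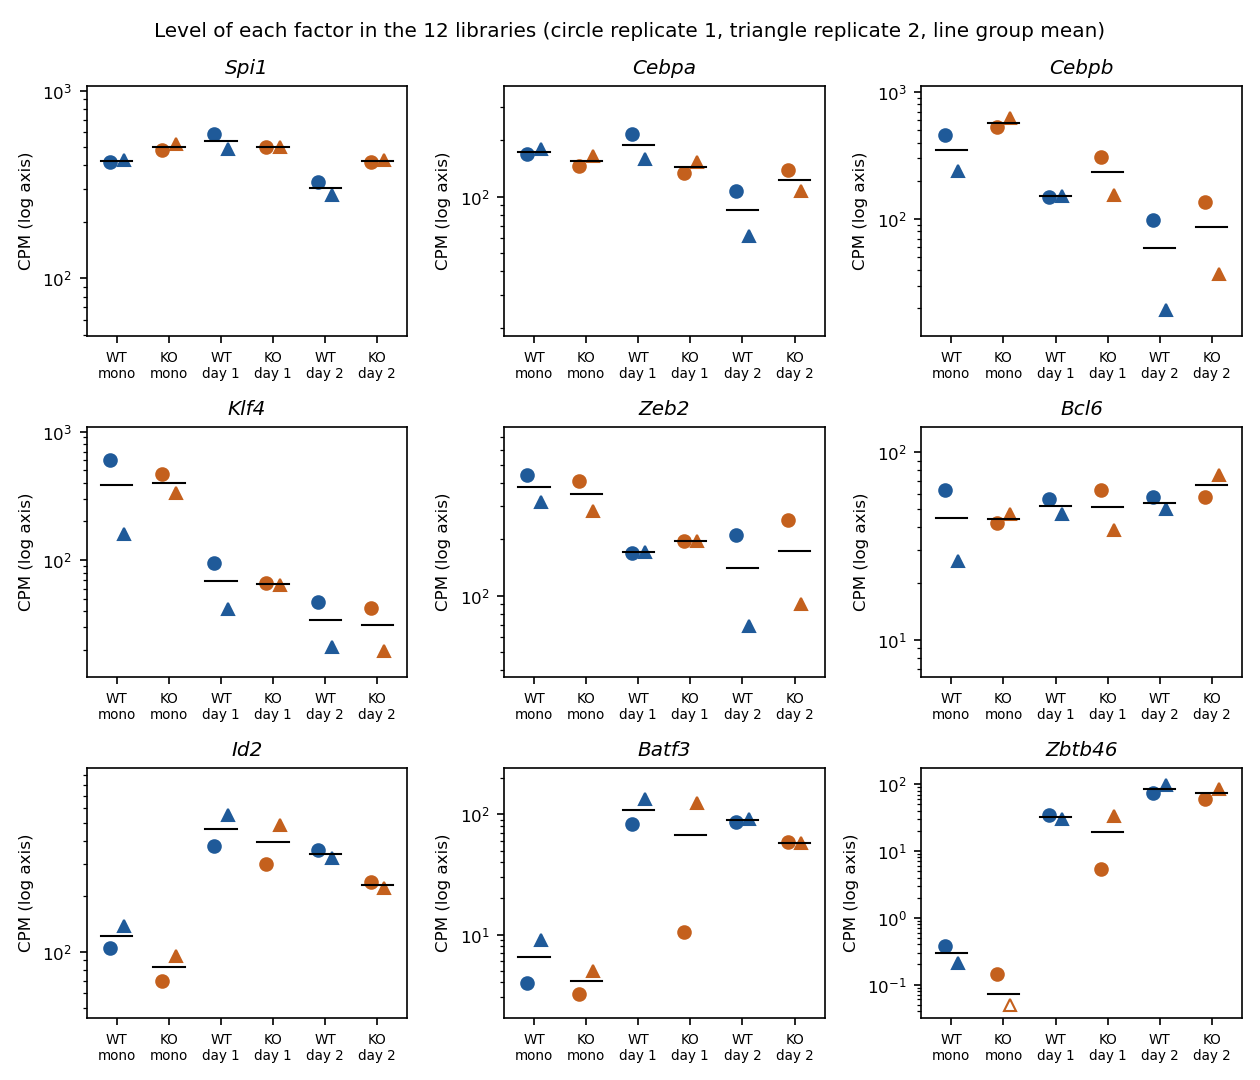
CPM of each of the 9 genes on a log axis in every library, by stage, with WT and KO marked by colour, the 2 replicates of a group by point shape and the group mean by a bar. The open symbol in the Zbtb46 panel marks 0 reads and is drawn at 0.05 CPM. Zbtb46, Batf3 and Id2 sat higher in culture than in monocytes, Klf4 lower, and the libraries of Spi1 lay within 2.12-fold of each other.

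On a per-length scale (RPKM, which is CPM per kilobase of exon) the order of the 9 genes turned over in culture. In WT monocytes Cebpb was highest, at a mean of 232 RPKM, followed by Spi1 (157), Klf4 (125), Cebpa (65.9), Id2 (49.8), Zeb2 (19), Bcl6 (6.64), Batf3 (4.05) and Zbtb46 (0.0349). Klf4 (52.5 to 198 RPKM) overlapped Spi1 and Cebpa in range there, and Cebpb had its lower library at 157.5 RPKM beside Spi1 at 154 and 159.5. KO monocytes had the same order of means. By WT day 2 the highest member was Id2 (139.6 RPKM), followed by Spi1 (112), Batf3 (55.8), Cebpb (39.3), Cebpa (32), Klf4 (11.2), Zbtb46 (10), Bcl6 (8.04) and Zeb2 (7.01). From Batf3 down, the ranges of neighbouring genes overlapped at that stage, except that Cebpa (23.5 to 40.5 RPKM) stayed above Klf4 (6.88 to 15.6), and Zbtb46 (8.66 to 11.4) reached down to the upper library of Bcl6 (8.65). KO day 2 had another order, with Spi1 (156) ahead of Id2 (94.7), Cebpb (57.3), Cebpa (46.8), Batf3 (36.3), Klf4 (10.2), Bcl6 (9.96), Zeb2 (8.65) and Zbtb46 (8.56). The ranges of Spi1 and Id2 did not overlap in either genotype at day 2. At WT day 1 Spi1 (200.5 RPKM) and Id2 (189) were the highest members, both above their level at the other WT stages, and they overlapped in range.

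Within 1 day of culture 4 of the 9 genes changed in WT cells: Id2, Batf3 and Zbtb46 rose and Klf4 fell. Over all tested genes 21.5% were called in that comparison (11.4% higher and 10.1% lower) by edgeR's quasi-likelihood test at an adjusted p under 0.05. The same 4 genes were called in KO cells at day 1, where the background was 13.8% (7.7% higher and 6.14% lower). At day 2 against monocytes 6 members were called in WT, with 3 higher and 3 lower, beside a background of 22.6% (12.7% higher and 9.89% lower). In KO 5 were called, with 3 higher and 2 lower, beside 17.5% (9.95% higher and 7.57% lower). The members' median log2 fold change was 0.21 at day 1 and -0.48 at day 2 in WT, against 0.06 and 0.09 for all genes. The WT comparisons of day 1 and day 2 with monocytes share the monocyte libraries, as do those of KO. Because the members were chosen with earlier results of these data known, their counts beside the background are no test of the set.

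**Figure D2:**
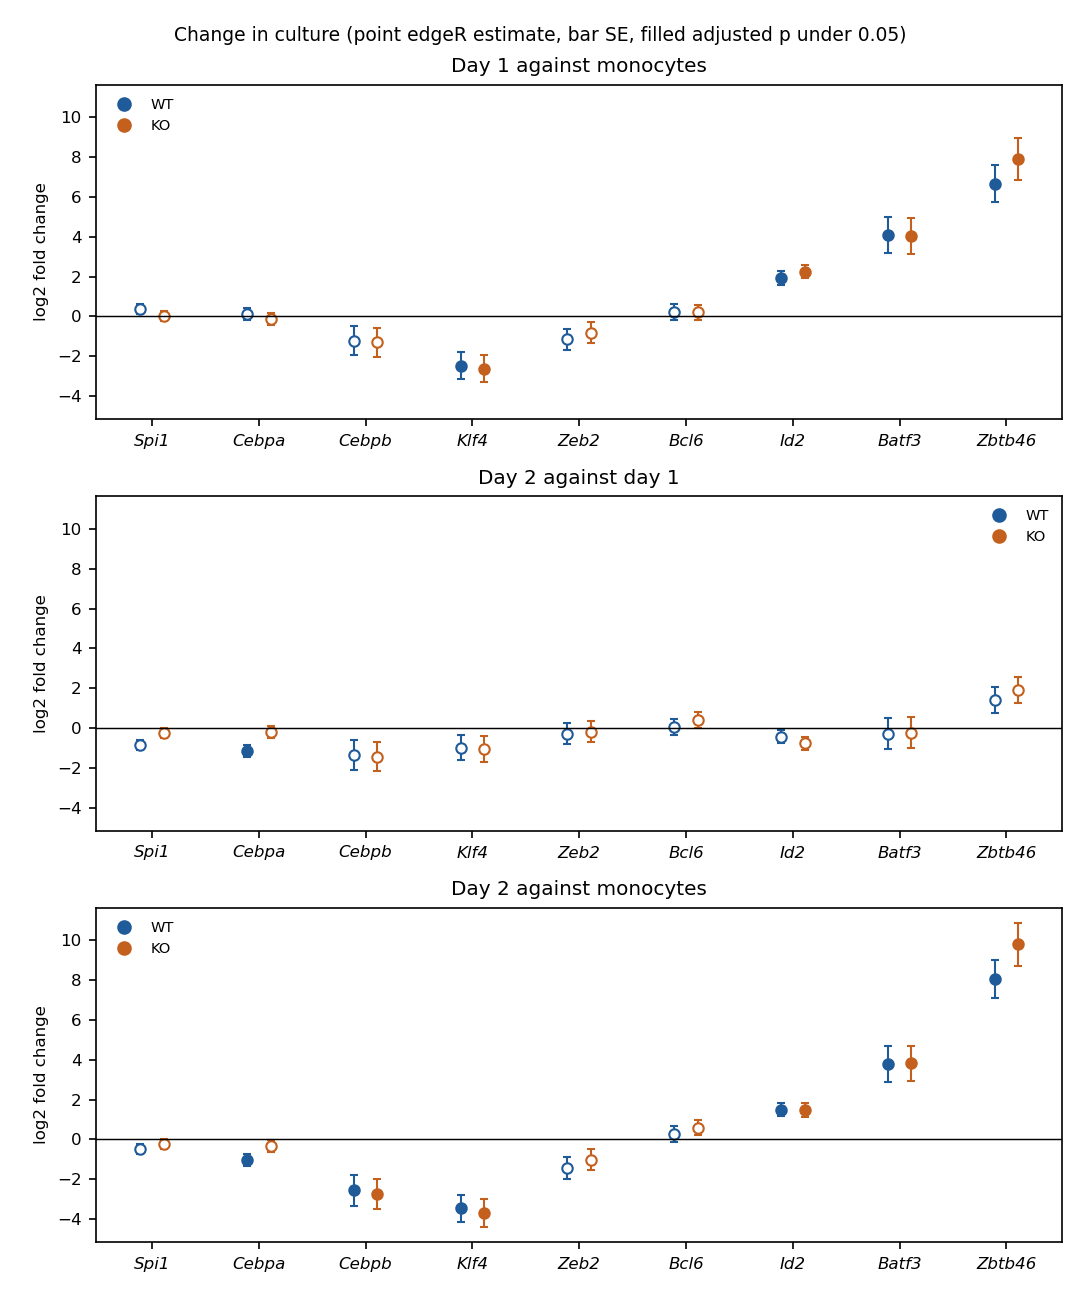
Log2 fold changes of the 9 genes in culture, with standard errors, for WT and KO, at day 1 against monocytes, day 2 against day 1 and day 2 against monocytes. Filled symbols mark an edgeR adjusted p under 0.05, and Zbtb46 lies farthest from 0 in the comparisons with monocytes, at 6.68 (WT) and 7.91 (KO) at day 1.

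Spi1, the myeloid master factor (ENSMUSG00000002111.8, GRCm38 chr2:91082390-91115756, plus strand), had the narrowest range over single libraries of the 9 members (2.12-fold). WT monocytes held 415 and 430 CPM (429.7 in replicate 2), WT day 1 589 and 492 CPM, and WT day 2 326.5 and 277 CPM. KO monocytes held 483 and 518 CPM, KO day 1 501.1 and 501.5 CPM, and KO day 2 415.5 and 425 CPM. WT libraries were thus highest at day 1 and lowest at day 2 without overlap, and KO libraries were lower at day 2 than at either earlier stage. The change from WT day 1 to day 2 was -0.84 ± 0.25 (log2 ± SE, adjusted p = 0.0631, edgeR), which did not pass. With the replicate block by experiment, which pairs nothing across these stages, it passed at an adjusted p of 0.0284, with the block by replicate number alone at 0.0418 and with DESeq2 at 0.00169, and it also passed without WT monocytes replicate 1 (adjusted p = 0.0395) or replicate 2 (adjusted p = 0.0381). In KO the same step was -0.25 ± 0.25 (adjusted p = 0.664). The test of the difference between the steps, 0.59 ± 0.35, gave an adjusted p of 1.

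Cebpa, the gene of C/EBPα (ENSMUSG00000034957.10, chr7:35119293-35121928, plus strand), fell at day 2 in WT, and its KO values did not pass. Its levels were 169 and 178.5 CPM in WT monocytes, then 216 and 159.7 CPM (WT day 1), then 107 and 62 CPM (WT day 2). In KO they were 146 and 165 CPM, then 134 and 154 CPM, then 139 and 108 CPM. Both WT day 2 libraries lay below every WT library of the earlier stages, while KO day 2 lay below both KO monocyte libraries and overlapped KO day 1. From WT day 1 to day 2 Cebpa fell by 1.15 ± 0.31 on the log2 scale (adjusted p = 0.0456, edgeR), and from WT monocytes to day 2 by 1.04 ± 0.31 (adjusted p = 0.0349). In KO these values were -0.22 ± 0.31 (adjusted p = 0.778) and -0.33 ± 0.31 (adjusted p = 0.499). The genotypes' steps differed by 0.93 ± 0.43 from day 1 to day 2 and by 0.71 ± 0.43 from monocytes to day 2, and neither difference passed (adjusted p = 1). Both WT calls sat close to the threshold. The fall from day 1 to day 2 lost its call in 12 of 21 alternatives, which included leaving out any of the KO monocyte, WT day 1, WT day 2 or KO day 2 libraries or KO day 1 replicate 1 (adjusted p of 0.053 to 0.31), and the fall from monocytes lost it in 8, among them without WT monocytes replicate 2, without either KO monocyte or KO day 2 library, and without WT day 2 replicate 2 (-0.70, adjusted p = 0.272).

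Klf4, a zinc finger factor of monocyte formation (ENSMUSG00000003032.8, chr4:55527143-55532466, minus strand), fell most among the members. WT monocytes held 603 and 160.1 CPM, WT day 1 94.8 and 42 CPM, and WT day 2 47.6 and 21 CPM. KO monocytes held 469.5 and 333 CPM, KO day 1 66.8 and 63.7 CPM, and KO day 2 42.5 and 19.6 CPM. Every cultured library was below every monocyte library in both genotypes, although the WT monocyte libraries differed from each other by 3.77-fold. Klf4 fell by 2.48 ± 0.67 on the log2 scale at WT day 1 (adjusted p = 0.0242, edgeR) and by 2.62 ± 0.67 at KO day 1 (adjusted p = 0.0276). With the compared groups alone the WT day 1 value did not pass (-2.53, edgeR adjusted p = 0.0656). Against monocytes at day 2 the fall was 3.47 ± 0.70 in WT (log2 fold change -3.47, adjusted p = 0.0057) and 3.70 ± 0.71 in KO (log2 fold change -3.70, adjusted p = 0.00549). Between day 1 and day 2 the values were -0.99 ± 0.64 in WT and -1.08 ± 0.65 in KO (adjusted p = 0.382 and 0.432). The WT day 1 call ended without WT monocytes replicate 1 (-1.20, adjusted p = 0.155) and without WT day 1 replicate 1 (-3.20, 0.0519) or replicate 2 (-2.01, 0.156), and the WT day 2 call without WT day 2 replicate 2 (-3.02, 0.0508). With 1 library left out the WT day 2 value ran from -4.20 (without WT day 2 replicate 1) to -2.20 (without WT monocytes replicate 1), and the KO day 2 value from -4.33 (without KO day 2 replicate 1) to -3.25 (without KO day 2 replicate 2). The KO day 1 call ended without any of the 4 KO libraries it compares (-2.84 to -2.38, adjusted p of 0.0777 to 0.161).

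Cebpb, a C/EBP factor of monocyte survival and inflammation (ENSMUSG00000056501.3, chr2:167688915-167690418, plus strand), fell in steps. WT monocytes held 462 and 237 CPM, WT day 1 150 and 152 CPM, and WT day 2 99.1 and 19.2 CPM. KO monocytes held 528 and 618 CPM, KO day 1 310.5 and 155 CPM, and KO day 2 135 and 37.2 CPM. In each genotype the 3 stages did not overlap, and both day 2 groups were split by replicate, with replicate 1 higher by 5.16-fold in WT and 3.63-fold in KO. At day 2 against monocytes Cebpb fell by 2.56 ± 0.77 in WT on the log2 scale (adjusted p = 0.0363, edgeR) and by 2.74 ± 0.77 in KO (adjusted p = 0.0343). With the compared groups alone the WT value did not pass (-2.59, edgeR adjusted p = 0.105). Neither call was kept without both libraries that stood apart (-3.04 in WT and -2.81 in KO). The day 1 values, -1.21 ± 0.73 in WT (adjusted p = 0.268) and -1.30 ± 0.74 in KO (adjusted p = 0.266), did not pass in the unblocked fit and passed with the replicate block by experiment, at -1.14 (adjusted p = 0.0289) and -1.39 (adjusted p = 0.0163). Likewise the steps from day 1 to day 2, -1.35 ± 0.74 in WT (adjusted p = 0.293) and -1.44 ± 0.74 in KO (adjusted p = 0.35), passed with the block at -1.80 (adjusted p = 0.00723) and -1.65 (adjusted p = 0.0188). Day 1 and day 2 share no experiment, so for these steps the block pairs nothing and takes the spread between the day 2 experiments out of the error. The block by replicate number alone passed none of these 4 values (adjusted p of 0.0861 to 0.198), and all 4 passed unblocked without the low-count filter (adjusted p of 0.00477 to 0.00905). Leaving out that filter also raised the calls over all genes, at KO day 2 against day 1 from 287 to 1235. The unblocked WT day 2 call ended without WT monocytes replicate 1 (-1.98, adjusted p = 0.103), without WT day 2 replicate 2 (-1.83, 0.161) and, at adjusted p of 0.0532 to 0.0564, without either KO monocyte or either WT day 1 library, and the value was -4.20 without WT day 2 replicate 1. The KO day 2 call ended without either KO monocyte library (adjusted p = 0.0907 and 0.126), without either WT day 1 library (0.0522 and 0.0514) and without KO day 2 replicate 2 (-2.10, 0.183), and the value was -3.92 without KO day 2 replicate 1.

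Id2, the E-protein inhibitor of the dendritic cell side (ENSMUSG00000020644.8, chr12:25093799-25097140, minus strand), rose at day 1 in both genotypes. WT monocytes held 105 and 138 CPM, WT day 1 374 and 548 CPM, and WT day 2 357 and 323 CPM. KO monocytes held 70.1 and 95.2 CPM, KO day 1 299 and 486 CPM, and KO day 2 239 and 223 CPM. All cultured libraries exceeded all monocyte libraries, day 1 was the highest stage, and day 2 lay below it without overlap in both genotypes. Id2 rose by 1.92 ± 0.34 (log2 ± SE) at WT day 1 (adjusted p = 0.00336, edgeR) and by 2.25 ± 0.34 at KO day 1 (adjusted p = 0.00243), and neither call was lost in any of 21 alternatives. At day 2 it was 1.49 ± 0.33 above monocytes in WT (adjusted p = 0.00986) and 1.48 ± 0.33 in KO (adjusted p = 0.012). With the compared groups alone the WT day 2 value did not pass (1.46, edgeR adjusted p = 0.0526). The later step did not pass, at -0.44 ± 0.33 in WT (adjusted p = 0.456) and -0.77 ± 0.33 in KO (adjusted p = 0.253). The WT day 2 call ended without WT day 2 replicate 1 (1.39, adjusted p = 0.0504), and the KO day 2 call without any of the 4 KO libraries it compares (1.26 to 1.72, adjusted p of 0.0505 to 0.111).

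Batf3, the AP-1 factor of cDC1 (ENSMUSG00000026630.9, chr1:191097847-191108945, plus strand), rose from low levels. WT monocytes held 3.98 and 8.96 CPM (52 and 85 reads), WT day 1 82.8 and 135 CPM, and WT day 2 86.1 and 92.2 CPM. KO monocytes held 3.21 and 4.96 CPM (45 and 70 reads), KO day 1 10.6 and 125 CPM, and KO day 2 58.5 and 57.3 CPM. Cultured libraries exceeded monocytes throughout, and the low value at KO day 1 belongs to the library labelled KO day 1 replicate 1. Batf3 rose by 4.08 ± 0.91 (log2 ± SE) at WT day 1 (adjusted p = 0.0108, edgeR), a call kept in all 21 alternatives, and by 4.05 ± 0.91 at KO day 1 (adjusted p = 0.0157). With the compared groups alone the KO day 1 value did not pass (3.99, edgeR adjusted p = 0.136). Without KO day 1 replicate 1 the KO value was 4.89 ± 0.48 (adjusted p = 0.000251), and without replicate 2 it was 1.37 (adjusted p = 0.153). At day 2 Batf3 was 3.79 ± 0.90 above monocytes in WT (adjusted p = 0.0129) and 3.82 ± 0.90 in KO (adjusted p = 0.0155). From day 1 to day 2 the values were -0.29 ± 0.79 in WT (adjusted p = 0.87) and -0.23 ± 0.79 in KO (adjusted p = 0.921). The KO step turned on the day 1 library kept: 2.45 (adjusted p = 0.0609) without KO day 1 replicate 2 and -1.09 ± 0.45 (adjusted p = 0.261) without KO day 1 replicate 1. Calls ended without WT monocytes replicate 1 at WT day 2 (3.33, adjusted p = 0.0559), and without KO monocytes replicate 1 or 2 at KO day 1 (3.73 and 4.41, adjusted p = 0.126 and 0.0965) and KO day 2 (3.52 and 4.17, adjusted p = 0.118 and 0.0936).

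Summed cDC1 markers (9 genes) were at 732 to 1020 CPM in monocytes, 2120 to 3510 CPM at day 1 and 1060 to 4630 CPM at day 2. Of these 9 genes 6 were tested, and 3 rose and 1 fell at WT day 1, beside 11.4% and 10.1% of all genes. Itgae and Cd24a rose with Batf3 at WT day 1 (log2 fold change 6.08 ± 1.36, adjusted p = 0.0127, and 2.40 ± 0.45, adjusted p = 0.00463) and Tlr3 fell (-5.83 ± 1.37, adjusted p = 0.0137). Xcr1, Cadm1 and Clec9a, singled out after their values were seen, had group means of at most 0.284, 1.04 and 1.74 CPM at any stage. The listed genes thus did not move together at WT day 1, where of the 6 tested 3 rose and Tlr3 fell. Xcr1, Cadm1 and Clec9a, picked by their values, stayed at or under a group mean of 1.74 CPM.

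Zbtb46, the zinc finger marker of conventional dendritic cells (ENSMUSG00000027583.13, chr2:181387762-181459426, minus strand), went from at most 5 reads in a monocyte library to at least 62 reads in a cultured one. Monocytes held 5 and 2 reads in WT (0.383 and 0.211 CPM) and 2 and 0 reads in KO (0.143 and 0 CPM, where 3 reads would be 0.213 CPM). WT day 1 held 35.1 and 30.1 CPM and WT day 2 73.7 and 97.1 CPM, while KO day 1 held 5.37 and 33.6 CPM and KO day 2 60.2 and 85.5 CPM. Every day 2 library exceeded every day 1 library, and every day 1 library exceeded every monocyte library. As a ratio of summed reads per effective library size, WT day 1 was 105-fold above WT monocytes with a 95% exact interval of 50.7 to 262, which covers counting error only. The ratio was 273 (132 to 681) at WT day 2, 319 (88 to 2640) at KO day 1 and 1080 (300 to 8960) at KO day 2, and the KO ratios rest on 2 reads in monocytes. Fitted log2 fold changes were 6.68 ± 0.93 (adjusted p = 0.00109, edgeR), 8.07 ± 0.96 (adjusted p = 0.000332), 7.91 ± 1.07 (adjusted p = 0.00147) and 9.80 ± 1.09 (adjusted p = 0.000309) in the same order, and none of these calls was lost in 21 alternatives. The KO sizes moved widely with 1 library left out: KO day 1 from 6.03 (without KO day 1 replicate 2) to 10.8 (without KO monocytes replicate 1), and KO day 2 from 8.89 (without KO monocytes replicate 2) to 12.71 (without KO monocytes replicate 1).

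The rise of Zbtb46 from day 1 to day 2 was 1.39 ± 0.65 in WT (adjusted p = 0.216, edgeR) and 1.89 ± 0.66 in KO (adjusted p = 0.166), and neither passed. Without the low-count filter, which raised calls over all genes in the KO step too, it passed in WT (1.42, adjusted p = 0.00552) and KO (1.90, 9.33e-05). It also passed in WT with the compared groups alone (1.38, adjusted p = 0.0191) and in KO with DESeq2 (2.00, 0.0433). In WT it passed without KO day 1 replicate 1 (1.41, adjusted p = 0.0411) or replicate 2 (1.39, 0.046), and in KO it passed without KO day 1 replicate 2 (3.76, 0.0118). It was 1.14 ± 0.46 in KO without KO day 1 replicate 1 (adjusted p = 0.254). In that comparison of KO day 2 with day 1 no member passed, against 2.05% of all genes, and 2 members had an unadjusted p under 0.05. In the WT comparison, with a background of 8.19%, Cebpa was the member that passed.

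Zeb2, the repressor on the monocyte side (ENSMUSG00000026872.17, chr2:44983632-45117395, minus strand), was lower in culture. WT monocytes held 441 and 317 CPM, WT day 1 169 and 172 CPM, and WT day 2 211 and 68.8 CPM. KO monocytes held 411 and 283 CPM, KO day 1 196.1 and 196.4 CPM, and KO day 2 254 and 90.9 CPM. All cultured libraries were below all monocyte libraries of their genotype, and day 2 was split by replicate in the same direction in both genotypes (replicate 1 higher by 3.07-fold in WT and 2.8-fold in KO). In the unblocked edgeR fit no change passed: -1.15 ± 0.54 at WT day 1 (adjusted p = 0.156, edgeR), -0.82 ± 0.54 at KO day 1 (adjusted p = 0.344), -1.44 ± 0.55 at WT day 2 (adjusted p = 0.0826) and -1.01 ± 0.54 at KO day 2 (adjusted p = 0.227). With the replicate block by experiment all 4 passed, at -1.13 (adjusted p = 0.00633), -0.80 (adjusted p = 0.0376), -1.64 (adjusted p = 0.000743) and -1.17 (adjusted p = 0.00564). For the day 2 values that block takes the spread between the day 2 experiments out of the error of a difference that itself lies between experiments, and the block by replicate number alone passed only WT day 2 (-1.56, adjusted p = 0.0212). Unblocked, 3 of the 4 also passed without the low-count filter (adjusted p = 0.014 at WT day 1, 0.00142 at WT day 2 and 0.0434 at KO day 2), and WT day 2 passed with DESeq2 (adjusted p = 0.0325). Leaving out the filter also raised calls over all genes in several comparisons, as counted further below. The WT day 2 value also passed without WT day 2 replicate 1 (-2.48, adjusted p = 0.0219), the library with high Xist.

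Bcl6, the repressor on the cDC1 side (ENSMUSG00000022508.5, chr16:23965052-23988852, minus strand), showed no change that passed. WT monocytes held 62.7 and 26.4 CPM, WT day 1 56.2 and 47 CPM, and WT day 2 58 and 49.8 CPM. KO libraries held 41.8 and 46.7 CPM, then 63.3 and 38.6 CPM, then 57.7 and 75.8 CPM. The stages overlapped in WT, and in KO day 2 lay above monocytes. The largest of its culture values was 0.59 ± 0.39 at KO day 2 against monocytes (adjusted p = 0.331, edgeR). Its WT values turned sign without WT monocytes replicate 2, from 0.21 to -0.32 at day 1 and from 0.27 to -0.24 at day 2, and its KO day 1 value from 0.20 to -0.24 without KO day 1 replicate 1.

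No member passed the test between KO and WT at any stage. Of all tested genes edgeR called 0% in monocytes, 0% at day 1 and 0.0998% (14 genes, all lower in KO) at day 2. The number of members at an unadjusted p under 0.05 was 0 at each stage by edgeR, and by DESeq2 0, 0 and 1, the 1 being Spi1 at day 2 (DESeq2 adjusted p = 0.727). Adjusted p-values of the members were 0.998 to 1 in edgeR. The widest standard errors, for Zbtb46 in monocytes (1.52) and Batf3 (0.79 to 0.85), leave room for differences of several fold, so that these tests do not show that the genotypes were alike. The fitted genotype values come from the unblocked fit, which does not pair WT and KO libraries of equal replicate number. Their standard errors thus include differences between experiments. With the replicate block by experiment no member was called between genotypes either.

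**Figure D3:**
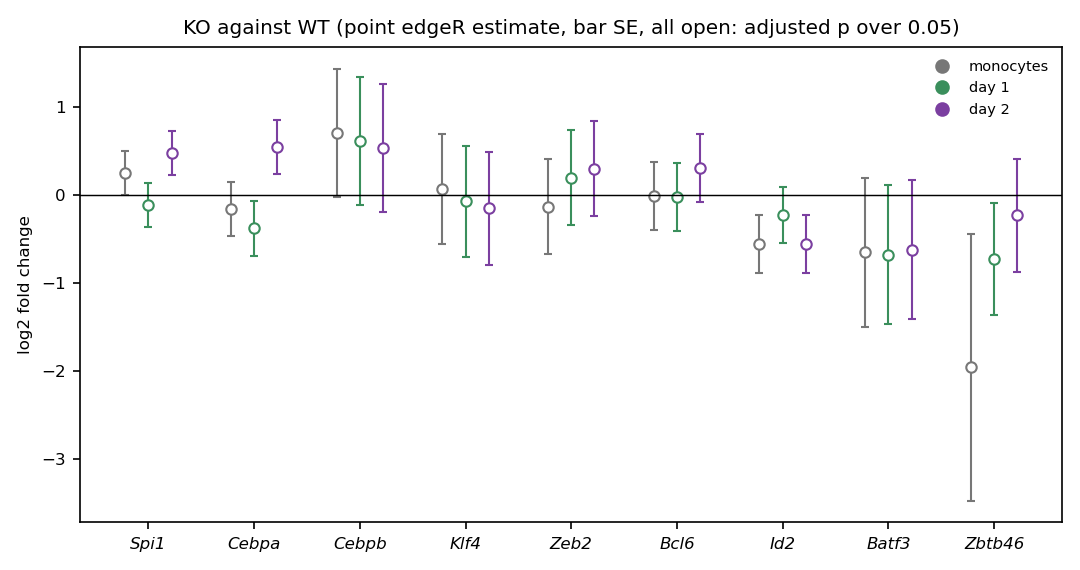
Log2 fold change of KO against WT, with standard errors, for the 9 genes in monocytes and at days 1 and 2. All symbols are open because no value passed. Id2 lay below 0 at all 3 stages (-0.56, -0.23 and -0.56), and Cebpb above 0 at all 3 (0.71, 0.62 and 0.54).

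On the dendritic cell side, Id2 was lower in both KO monocyte libraries than in both WT ones, at -0.56 ± 0.33 (log2 ± SE), and lower in both KO day 2 libraries, again at -0.56 ± 0.33. At day 1 the 2 genotypes overlapped (-0.23 ± 0.32). Within pairs of equal replicate number Id2 was lower in KO in 6 of 6. KO was at 0.669 and 0.689 of WT in monocytes and 0.668 and 0.69 at day 2. At day 1 it was at 0.801 and 0.888. Batf3 was lower in KO in 6 of 6 as well. Some pairs were near even, with Batf3 in KO at 0.926 of WT in day 1 replicate 2. The share of all tested genes that lay in 1 direction in 6 of 6 pairs was not computed. The pairs are not independent, because monocytes and day 1 came from the same experiments. Batf3 was lower in both KO day 2 libraries (-0.62 ± 0.79) at 58.5 and 57.3 CPM against 86.1 and 92.2 CPM in WT. At day 1 its genotype value was -0.68 ± 0.79 with all libraries and 0.20 ± 0.46 without the library labelled KO day 1 replicate 1. Zbtb46 gave -0.73 ± 0.64 at day 1, 0.05 ± 0.44 without that library, and -0.23 ± 0.64 at day 2, where the genotypes overlapped and KO was at 0.816 and 0.88 of WT within pairs. In monocytes Zbtb46 had 2 reads in KO and 7 in WT, a ratio of 0.229 with an exact 95% interval of 0.0232 to 1.2. The sum of the dendritic cell markers went the other way at day 2, at 30200 to 33500 CPM in KO and 20500 to 23500 CPM in WT. A sum follows its most abundant genes, and the single genes of the list lay on both sides of 0. Their log2 fold changes of KO against WT at day 2 ran from -3.90 (Ccr7) to 1.57 (Cd209a), and none passed in edgeR. The part of these markers in the lower Id2 and Batf3 of KO was not tested.

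On the monocyte and general myeloid side, Cebpb was higher in KO in 6 of 6 pairs, again without a share of all genes to set beside it. It was higher in both KO monocyte libraries (0.71 ± 0.73) and both KO day 1 libraries (0.62 ± 0.73), where KO day 1 replicate 2 (155 CPM) exceeded the WT libraries (150 and 152 CPM) by a small margin. Without the library labelled KO day 1 replicate 1 the day 1 value was 0.04 ± 0.87. At day 2 the value was 0.54 ± 0.73, and within pairs KO was at 1.36 and 1.94 of WT. The value turned to -0.64 without KO day 2 replicate 1 and to -0.20 without WT day 2 replicate 2. Leaving out 1 library of a pair breaks the pairing, so these signs also carry the difference between experiments. The WT and KO libraries of 1 experiment lay together at day 2, at 99.1 and 135 CPM in replicate 1 and 19.2 and 37.2 CPM in replicate 2. Spi1 was higher in both KO libraries of monocytes (0.25 ± 0.25) and of day 2 (0.48 ± 0.25). Cebpa was higher in both KO libraries at day 2 (0.55 ± 0.31) and lower in both in monocytes (-0.16 ± 0.31) and at day 1 (-0.38 ± 0.31). Klf4 overlapped between genotypes at every stage (0.07 ± 0.63, -0.07 ± 0.63 and -0.15 ± 0.64).

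Among the repressors Zeb2 was higher in both KO day 1 libraries (0.20 ± 0.54), and it overlapped in monocytes and at day 2. Within pairs Zeb2 was at 0.932 and 0.891 of WT in monocytes, 1.16 and 1.14 at day 1 and 1.2 and 1.32 at day 2. Bcl6 overlapped in monocytes and at day 1, and at day 2 KO replicate 1 (57.7 CPM) lay just below WT replicate 1 (58 CPM). In all, the genotypes did not overlap for 5 of the 9 members in monocytes, 3 at day 1 and 4 at day 2, beside 24.2%, 19.4% and 38.3% of all tested genes. None of the 3 interaction tests called a member, and edgeR gave 0 members at an unadjusted p under 0.05 in each, where all genes gave 0%, 0% and 0.0285% called. DESeq2 also called no member there.

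Across the 12 libraries Klf4, Cebpb and Zeb2 ran opposite to Id2, Batf3 and Zbtb46. In log2 CPM the Pearson r between these 2 sets was -0.91 to -0.58. Batf3 and Zbtb46 had an r of 0.93, Id2 and Batf3 0.91 and Id2 and Zbtb46 0.84. On the other side Cebpb and Zeb2 had an r of 0.90, Klf4 and Cebpb 0.88 and Klf4 and Zeb2 0.87. Spi1 and Cebpa had 0.85 with each other, but only -0.48 to -0.08 with Id2, Batf3 and Zbtb46. Bcl6 had an r of -0.33 to 0.45 with the other members. The lowest r was that of Klf4 with Zbtb46, at -0.91. These values describe libraries that share stage, genotype and experiment, so they mainly restate the order of the stages, and no p was computed.

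The genes most like each member over the 12 libraries, among 9435 tested genes with a mean of at least 5 CPM, were as follows. For Zbtb46 they were Igsf9 (r = 0.993), Slc30a4 (0.992) and Jak2 (0.991), the last encoding a kinase of cytokine receptors. Batf3 was nearest to Prelid2 (0.986), Ccl24 (0.985) and Cd36 (0.977), of which Ccl24 encodes an eotaxin-type chemokine and Cd36 a scavenger receptor. Id2 was nearest to Nop16 (0.969), Pign (0.966) and Fam136a (0.964). For Klf4 the nearest were Hpcal1 and Fn1 (both 0.978) and Lcp2 (0.974), Fn1 encoding fibronectin. Cebpb was nearest to Tlr6 (0.972), a Toll-like receptor gene, Eepd1 (0.963) and Snx18 (0.962), and Zeb2 to Cd300lb (0.967), P2rx7 (0.965), an ATP receptor gene, and Gda (0.961). Cebpa was nearest to Smim5 (0.958), Arsi (0.929) and Psap (0.923), Spi1 to Surf4 (0.952), Pcyox1l (0.938) and Srp68 (0.929). Bcl6 had the weakest neighbours, Lmtk2 (0.913), Elmsan1 (0.908) and Dennd4b (0.898).

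Among 34 other fate transcription factors, all of them tested, 9 rose and 7 fell at WT day 1, beside 11.4% and 10.1% of all genes, with a median log2 fold change of 0.23 against 0.06. Bhlhe40 rose by 5.40 ± 0.36 (adjusted p = 2.77e-05, edgeR), from a mean of 6.14 to 259 CPM. Rbpj, the DNA-binding partner of Notch, rose by 2.88 ± 0.33 (adjusted p = 0.000424), and Irf4, an interferon regulatory factor of dendritic cells, by 3.96 ± 0.55 (adjusted p = 0.00105). Nr4a1, a paralog of Nr4a3 required for nonclassical monocytes, fell by 9.29 ± 1.13 on the log2 scale (adjusted p = 0.000611). KO day 1 had 7 higher and 6 lower, beside 7.7% and 6.14% of all genes, again with Bhlhe40 (4.12 ± 0.34), Rbpj (2.70 ± 0.32) and Nr4a1 (-8.72 ± 1.09) among the smallest p-values.

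At WT day 2 against monocytes 12 of the 34 were higher and 4 lower, beside 12.7% and 9.89% of all genes, with a median of 0.71 against 0.09. At KO day 2 10 were higher and 8 lower, beside 9.95% and 7.57%, with a median of 0.33 against 0.08. Stat5a, which transduces the GM-CSF signal, was at 74.9 CPM in WT monocytes, 77.8 CPM at WT day 1 and 534 CPM at WT day 2. It rose from day 1 to day 2 by 2.78 ± 0.32 in WT (adjusted p = 0.00155, edgeR) and by 2.46 ± 0.32 in KO (adjusted p = 0.00554). Relb, an NF-κB subunit of maturing dendritic cells, rose over the same step in WT by 2.01 ± 0.39 (adjusted p = 0.0152), and Tcf4, the E-protein of plasmacytoid dendritic cells, by 1.89 ± 0.38 (adjusted p = 0.0176). In that WT step 7 of the 34 rose and 1 fell, beside 8.19% of all genes called either way, and in the KO step 2 rose (Stat5a and Tcf4) and 0 fell, beside 2.05%. None of the 34 was called between genotypes at any stage.

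Of 25 paralogs of the members, 23 were tested, and genes of a family did not all move in the same direction. Zeb1, the close relative of Zeb2, was at 64.9 and 75.2 CPM at WT day 2 against 4.46 and 7.02 CPM at WT day 1, a rise of 3.61 ± 0.34 (adjusted p = 0.000617, edgeR). In KO it was at 40.2 and 40.6 CPM at day 2 against 4.16 and 4.38 CPM at day 1, a rise of 3.24 ± 0.34 (adjusted p = 0.00147). The Zeb1 groups at day 1 and day 2 did not overlap in either genotype, while those of Zeb2 did. Like Zeb2, the Zeb1 day 2 libraries come from other experiments than the day 1 libraries.

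In the ID family Id3 rose with Id2 at WT day 1, by 6.42 ± 0.59 (adjusted p = 0.000143, edgeR) to 48.6 and 33.9 CPM, and at KO day 1 by 3.86 ± 0.49 (adjusted p = 0.000982) to 52.3 and 49.5 CPM. The 2 rises started from unlike levels: Id3 of KO against WT was 2.86 ± 0.57 in monocytes, which did not pass (edgeR adjusted p = 0.998), and 0.30 ± 0.43 at day 1. Id1, a further inhibitor of E-proteins, fell from WT day 1 to day 2 by 3.66 ± 0.67 on the log2 scale (adjusted p = 0.0122). Of the KLF family, Klf7 rose at WT day 1 by 4.85 ± 0.61 (adjusted p = 0.000695) and Klf2, a factor of quiescent monocytes and T cells, fell by 5.10 ± 0.72 on the log2 scale (adjusted p = 0.00116), as Klf4 did. Cebpd, a C/EBP relative induced by inflammation, fell at WT day 1 by 2.53 ± 0.43 on the log2 scale (adjusted p = 0.00305), from 97.5 and 182 CPM to 28.7 and 19.8 CPM, and at KO day 1 by 1.44 ± 0.42 (log2 fold change -1.44, adjusted p = 0.0441). In counts, 4 of the 23 rose and 3 fell at WT day 1, beside 11.4% and 10.1% of all genes, and 2 rose and 2 fell at KO day 1, beside 7.7% and 6.14%, which are shares near the background. At day 2 against monocytes 5 rose and 6 fell in each genotype, beside 12.7% and 9.89% in WT and 9.95% and 7.57% in KO. Their medians lay between -0.41 and 0.10 in the 6 culture comparisons, and none was called between genotypes.

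**Figure D4:**
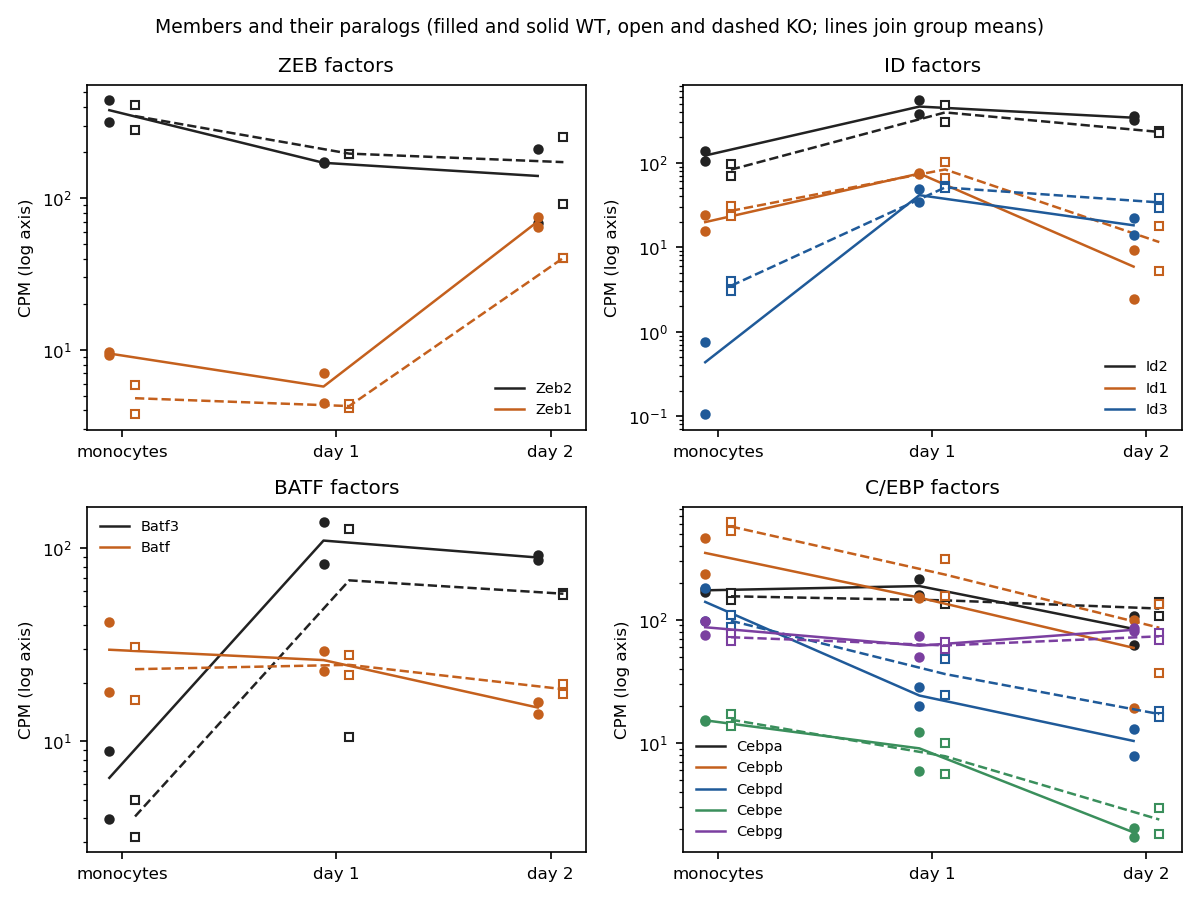
CPM on a log axis in each library, by stage, of members beside paralogs in the ZEB, ID, BATF and C/EBP families, with genes in colours, WT as filled points and solid lines and KO as open points and dashed lines that join group means. Zeb1 lies at 40.2 CPM or more in all day 2 libraries and at 9.66 CPM or less in all others, while Zeb2 is highest in monocytes.

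Receptor and granule genes of myeloid cells include genes that PU.1 and C/EBP factors are known to act on. Of the 12 listed genes 1 rose and 5 fell at WT day 1, beside 11.4% and 10.1% of all genes, with a median log2 fold change of -1.28 against 0.06. The gene that rose was Csf2rb, a chain of the GM-CSF receptor (2.94 ± 0.48, adjusted p = 0.00235, edgeR), and the granule genes Mpo (-6.21 ± 0.41, adjusted p = 2.77e-05), Elane (-6.00 ± 0.63, adjusted p = 0.000289) and Ctsg (-5.46 ± 0.65, adjusted p = 0.000526) had the smallest p among those that fell. At WT day 2 against monocytes 1 rose and 6 fell (median -2.07 against 0.09). KO day 1 gave 1 and 4, beside 7.7% and 6.14%, with a median of -0.52 against 0.11, and KO day 2 gave 1 and 5 (median -1.47 against 0.08). The summed level of these genes was 20500 to 46300 CPM in WT monocytes, 18500 to 22700 CPM in KO monocytes, 8660 to 11300 CPM at WT day 1, 10900 to 19000 CPM at KO day 1 and 3630 to 10200 CPM at day 2, so that KO monocytes and KO day 1 overlapped. Neutrophil markers (14 genes) were present in every library, at 1550 to 4490 CPM in monocytes and 450 to 2140 CPM in culture, with no listed gene at 0 in any group. Their part in the falls of Cebpa, Cebpb and Klf4 was not tested. Summed B cell markers also dropped, from 402–528 CPM in monocytes to 13–37.7 CPM in culture, and T and NK cell markers stayed at or under 2.91 CPM.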

How the data were processed

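RNA was measured by poly(A) sequencing in 12 libraries. Per the labels' protocols, a stranded KAPA kit was used with 20 ng of RNA and 16 PCR cycles. Trimmomatic 0.35, STAR 2.5.1b and GRCm38 are named per the submitters' processing notes, and an annotation release was not given in the sources used here. As deposited, the values are raw counts of reads for each gene, laid out like STAR's own gene counts, which the authors did not normalize. Column 4 (reverse strand) was used; reads on the other strand of genes were 3.63% to 5.33%. The 4 lines naming no gene (2.65% to 7.91% unmapped, 5.29% to 8.94% multimapping, 5.24% to 11.2% outside genes, 1.34% to 1.76% ambiguous) stayed out of library sizes and tests. Of 47643 gene IDs, 47224 had a symbol in GENCODE M21 (GRCm38), the source of coordinates and exon lengths. Depth was 5905266 to 18447405 reads in genes.

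Genes were tested with edgeR 4.0.16 (R 4.3.3): TMM, filterByExpr, robust quasi-likelihood fit, 1 mean per group, 12 libraries, 6 residual degrees of freedom, 14034 genes, two-sided tests, Benjamini-Hochberg adjustment over all of them, threshold 0.05. The script was tested on simulated data. There were 9 contrasts and 3 interactions. CPM used TMM-effective library sizes, and RPKM the union of annotated exons. Log2 CPM for correlations used a prior count of 2. Alternatives were RLE and upper-quartile scaling, no filter, DESeq2 1.42.0, replicate blocks, the compared groups alone, unstranded counts, the longest transcript for RPKM, and leaving out libraries. Without the block, each group has 2 libraries from separate experiments per the labels, so p-values measure the spread between these. Promoter windows came from RefSeq (GRCm38.p6); no window of Spi1 was used.

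The replicate numbers were read as pairs because the dates in the deposited files' names tie equal numbers to 1 experiment within monocytes and day 1, and within day 2. Deviations from group means correlated between same-numbered libraries of WT and KO at 0.236 (monocytes), 0.194 (day 1) and 0.657 (day 2), and of monocytes and day 1 at 0.276 (WT) and 0.128 (KO), against 0.044 between WT monocytes and WT day 2. File names of day 1 replicate 2 carry a shorter culture time than the labels, whose time was used.

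The members, the 15 lists and the tests were chosen with earlier results of these data known. Named genes are all 9 members, plus, per list, at most 4 genes that passed (smallest adjusted p) and at most 2 that did not pass (highest CPM). Xcr1, Cadm1 and Clec9a were named after their values were seen, and Ccr7 and Cd209a as the ends of a range. For likeness the 3 genes with the highest r were named.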

Additional observations from a re-analysis of the deposited data

How the results depend on the processing

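Each change called in a member kept its direction under all 21 alternatives, while values that were not called changed sign in some, as counted below. Members called at WT day 2 against day 1 (1 with the settings of the report) were 0 with RLE scaling and with unstranded counts, 3 without the low-count filter, 2 with DESeq2, 3 without the libraries standing apart, KO day 1 replicate 1 and WT monocytes replicate 2, and 0 to 2 with 1 library left out. At KO day 2 against day 1 (0) they were 2 without the filter, 1 with DESeq2 and 0 to 1 with 1 library left out. At WT day 2 against monocytes (6) they were 3 when the fit held those groups alone and 3 to 6 with 1 library left out, at KO day 1 (4) 2 to 4 and at KO day 2 (5) 2 to 5. The cause of these shifts was not tested. With the replicate block by experiment, which pairs nothing between day 1 and day 2, 3 members were called at WT day 2 against day 1 and 1 at KO day 2 against day 1. With the block by replicate number alone 2 were called in the WT step. The 9 calls that the block by experiment added are of Spi1, Cebpb and Zeb2 and stand in the report, and that block lost none. No member was called between genotypes or in an interaction under any alternative.

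Counts over all genes varied more. They were 0 to 137 for KO against WT in monocytes, 0 to 140 at day 1 and 1 to 142 at day 2, where DESeq2 called 3, 3 and 90. They were 1397 to 4072 at WT day 1 (3022 in the report), 173 to 2652 at WT day 2 against day 1 (1149), 1494 to 4453 at WT day 2 (3166), 600 to 3308 at KO day 1 (1942), 20 to 1235 at KO day 2 against day 1 (287) and 962 to 3846 at KO day 2 (2459). Interaction counts were 0 to 115 from monocytes to day 1, 0 to 122 from day 1 to day 2 and 0 to 93 from monocytes to day 2. The highest interaction counts all came without the low-count filter. So did the 140 and 142 for KO against WT at days 1 and 2 and the 1235 at KO day 2 against day 1. Uncalled members changed sign in up to 17 of 108 values, without both libraries that stood apart. With the longest transcript in place of the exon union, the order of the members by RPKM was unchanged in monocytes and differed for 2 to 5 members in the cultured groups. With 2 or fewer Zbtb46 reads in 3 of the 4 monocyte libraries, depth limits its fold change.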

Other observations

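Reads on the strand opposite to Zeb2, where the Zeb2os transcript overlaps 653 bases of its exons, made up a varying share of all reads over the gene. In WT they were 8.18% and 30.2% in monocytes (replicates 1 and 2), 8.31% and 17.9% at day 1 and 5.37% and 11.7% at day 2. In KO they were 8.22% and 17.3% in monocytes, 9.94% and 15.7% at day 1 and 5.28% and 8.03% at day 2. Replicate 2 had the higher share in all 6 groups. Over all genes the share was 3.63% to 5.33%. The strand-specific counts leave these reads out of the Zeb2 values.

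Cebpb shares 312 bases (20.7%) of its exons with Tmem189 on the other strand, and its values also rest on strand-specific counting.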
